A study of Mus musculus with 6 samples.

Results

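The loci of 9 genes for interferon regulatory factors (IRFs) and signal transducers and activators of transcription (STATs) were examined for open chromatin in primary mouse vascular smooth muscle cells (VSMCs). The genes were Irf1, Irf2, Irf3, Irf7, Irf8, Irf9, Stat2, Stat3 and Stat6. A locus was the gene body with 20 kb on each side, positions are given on mm10, and peaks of different libraries were merged into 1 region where they shared at least 1 base. The 9 loci held 60 of the 85174 regions and 217 of the 280120 peaks of the series, with 33 regions at the IRF genes and 27 at the STAT genes. Open chromatin was measured by ATAC-seq, in which the Tn5 transposase cuts accessible DNA. There were 3 libraries from cells transfected with siRNA against Arid3a (siArid3a, replicates 1 to 3, each with a different siRNA) and 3 from cells transfected with a negative control (NC, replicates 1 to 3). ARID3A is a transcription factor whose AT-rich interaction domain (ARID) binds DNA. All libraries came from commercial primary mouse VSMCs transfected with the riboFECT reagent, kept for 24 h and assayed with 50000 cells and 30 min of Tn5. The labels also describe angiotensin II treatment without saying which libraries received it, so it was not a factor here. The labels do not state separate cultures within a group, so each p-value reflects variation among these 6 libraries, part of which may be technical, and the spread within siArid3a also holds differences between siRNAs.

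Interferons bind receptors at the cell surface and activate the Janus kinases, which phosphorylate STAT proteins. STAT2 and IRF9 are subunits of the complex ISGF3, which binds interferon-stimulated response elements (ISREs), whereas STAT dimers bind gamma-activated sequences (GAS). IRF3 and IRF7 are activated downstream of nucleic acid sensors and switch on type I interferon genes. IRF1 activates and IRF2 mostly represses shared targets, IRF8 is best known from myeloid and B cells, STAT3 acts downstream of the interleukin-6 family and STAT6 downstream of interleukin-4 and interleukin-13. In vascular smooth muscle these factors are studied in inflammation of the vessel wall.

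The promoter sequences of Irf1, Irf2, Stat2 and Irf8 are shown because these 4 held the ISRE or GAS matches found at the members and differed in their peaks. Each is the RefSeq window of 250 bases before to 50 bases after the start on GRCm38.p6, the assembly of mm10, read 5′ to 3′ on the + strand. Capitals mark matches to the ISRE pattern, a pair of GAAA sites with any 2 bases between them, or to the GAS pattern TTCNNNGAA, searched on both strands. The windows lie at chr11:53769764-53770063 (Irf1), chr8:46739495-46739794 (Irf2), chr10:128270248-128270547 (Stat2) and chr8:120736108-120736407 (Irf8, the upstream of its 2 starts).
Irf1: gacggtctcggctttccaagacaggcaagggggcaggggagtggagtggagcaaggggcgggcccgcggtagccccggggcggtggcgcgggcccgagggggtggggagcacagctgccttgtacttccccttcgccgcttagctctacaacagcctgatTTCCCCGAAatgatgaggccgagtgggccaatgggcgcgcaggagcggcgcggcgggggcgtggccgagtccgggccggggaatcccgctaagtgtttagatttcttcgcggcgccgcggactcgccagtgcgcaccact
Irf2: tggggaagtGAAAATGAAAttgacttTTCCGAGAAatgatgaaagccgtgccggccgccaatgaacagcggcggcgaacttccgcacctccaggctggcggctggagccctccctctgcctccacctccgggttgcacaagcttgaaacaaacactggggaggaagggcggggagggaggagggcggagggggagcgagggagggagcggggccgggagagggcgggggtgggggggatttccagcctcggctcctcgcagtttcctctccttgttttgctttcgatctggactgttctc
Stat2: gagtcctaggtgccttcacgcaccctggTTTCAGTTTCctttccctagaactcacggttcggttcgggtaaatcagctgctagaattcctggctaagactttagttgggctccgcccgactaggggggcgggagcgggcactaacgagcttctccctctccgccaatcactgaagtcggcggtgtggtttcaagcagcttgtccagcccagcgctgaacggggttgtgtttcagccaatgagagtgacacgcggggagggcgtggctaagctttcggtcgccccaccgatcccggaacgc
Irf8: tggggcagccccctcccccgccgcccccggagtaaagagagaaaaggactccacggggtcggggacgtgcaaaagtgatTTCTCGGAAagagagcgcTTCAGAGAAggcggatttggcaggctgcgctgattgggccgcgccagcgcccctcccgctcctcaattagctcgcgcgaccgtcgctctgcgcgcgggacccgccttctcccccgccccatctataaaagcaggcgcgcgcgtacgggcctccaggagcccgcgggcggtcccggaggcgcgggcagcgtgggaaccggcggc

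Peak lists differed in depth. The siArid3a lists held 50543, 51279 and 41629 peaks and the NC lists 51330, 33248 and 52091. The sources used here do not give depth, and totals estimated from the lists ran from 1.19 to 1.98 megatags in siArid3a and from 0.950 to 2.00 megatags in NC, lowest in siArid3a replicate 3 and NC replicate 2. The median peak had 8 to 11 tags at its summit, so weak peaks lie close to the detection limit. Of the smooth muscle markers with a promoter window, 2 of 6 (Acta2 and Smtn) had a promoter peak in 6 of 6 libraries, against 31.8% of 17492 coding genes with a window, so this count does not set them apart. Des and Synpo2 had none, as did 46.4% of coding genes. Of 6 leukocyte, 5 endothelial and 3 fibroblast marker promoters, 0 had a peak in 6 of 6 libraries, and 2, 2 and 0 had one in 1 to 5 libraries. The leukocyte markers Ptprc, Itgam, Cd3e and Fcer1g had no promoter peak in any library, whereas Cd68 had one in 3 siArid3a and 2 NC libraries and Lyz2 in 0 siArid3a and 2 NC libraries. Tagln and Myh11 had no promoter window and were not checked there. Of 52 regions at the endothelial markers, 1 was present in siArid3a alone, as were 0.432% of all regions of the series. It lay inside Vwf (chr6:125661473-125661870), with fold enrichments of 6.59, 4.60 and 4.87 in siArid3a and no peak in NC. RNA interference acts on the transcript, so peaks at Arid3a do not check the knockdown. The Arid3a locus (chr10:79927043-79955018 with 20 kb on each side) held 13 regions, of which 5 were present in 6 of 6 libraries and 0 in the libraries of 1 group alone.

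Open chromatin was called at 8 of the 9 loci in both groups. Of the 9 genes, 5 (Irf3, Irf7, Irf9, Stat2 and Stat3) had a promoter peak in 6 of 6 libraries, against 31.8% of 17492 coding genes with a promoter window. Irf1, Irf2 and Stat6 had one in some libraries. Irf8 had none, as did 46.4% of coding genes. A peak list gives the called sites of a cell population, in which fewer open cells and less accessible chromatin per cell cannot be told apart.

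**Figure D1:**
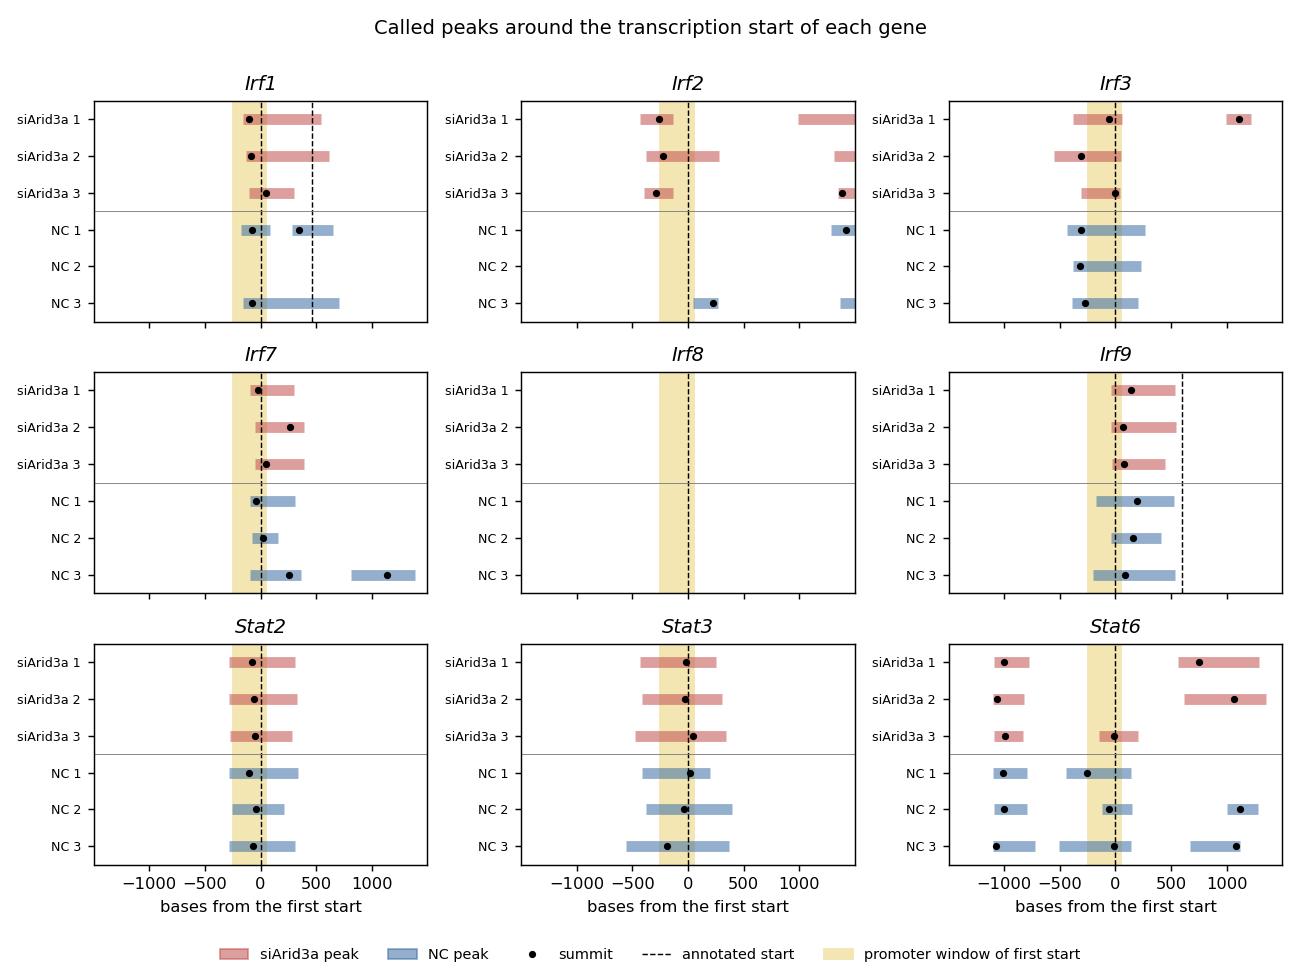
Called peaks (bars) and their summits (dots) around the first annotated start of each gene, in bases in the direction of transcription, for siArid3a replicates 1 to 3 above NC replicates 1 to 3. The shaded band is the promoter window, 250 bases before to 50 after the first start. Stat2 has a peak over its start in all 6 libraries and Irf8 has none. In the Irf2 promoter region the 3 siArid3a peaks have summits before the start and the NC replicate 3 peak has its summit after it. Another Irf2 region, farther inside the gene, has peaks in 3 siArid3a libraries and in NC replicates 1 and 3.

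Stat2, the partner of IRF9 in ISGF3, had the strongest promoter peak among the 9 genes by median fold. The peak's fold enrichment over local background, a value the authors' caller gave and scaled within each library, was 14.1, 14.3 and 11.3 in siArid3a and 13.6, 11.0 and 18.9 in NC. The summits carried 35, 33 and 21 tags in siArid3a and 34, 20 and 45 in NC. Such values describe a peak within its list and are not read here as a change between libraries. Their ranges in the groups overlapped, and the shallowest library of each group had the lowest value. The peak ranked high in every list, with 93.3% to 99.3% of the list's peaks at or below its -log10 q. The region spanned chr10:128270215-128270839, and all 6 summits lay between positions -103 and -43 relative to the start (position 0). The ISRE match shown above, at positions -222 to -213, lay inside the peak in 3 of 3 siArid3a and 3 of 3 NC libraries.

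Irf9, the DNA-binding subunit of ISGF3, also had an open promoter in both groups. Its region at chr14:55603787-55604531 had fold enrichments of 9.59, 13.3 and 10.6 in siArid3a and 11.3, 9.10 and 15.9 in NC. The NC values enclosed the siArid3a values. The summits lay after the first start, from position 64 to 194. Neither promoter window of Irf9 held an ISRE or GAS match.

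Stat3, which carries interleukin-6 family signals, had a promoter region at chr11:100939142-100940094. Its fold enrichments were 11.7, 8.99 and 11.8 in siArid3a and 9.17, 8.03 and 11.1 in NC. The groups overlapped, with the lowest value in NC replicate 2. Inside the gene, a region at chr11:100912820-100913200 was also present in all 6 libraries, at fold enrichments of 12.8, 9.58 and 6.07 in siArid3a and 9.63, 9.71 and 11.5 in NC, so that the siArid3a values enclosed the NC values. With 11 regions, Stat3 had the most of the 9 loci, but 7 of the 11 came from 1 library each.

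Irf3 and Irf7, the factors that switch on interferon genes, had promoter peaks in all 6 libraries, at lower fold enrichments. The Irf3 region at chr7:44997100-44997914, which also covers the promoter of the neighbouring gene Bcl2l12, had 7.90, 6.45 and 5.49 in siArid3a and 7.60, 5.03 and 8.41 in NC. The Irf7 region at chr7:141266035-141266521 had 7.40, 7.13 and 4.78 in siArid3a and 8.41, 5.43 and 5.88 in NC. At both genes the groups overlapped. Irf7 had only 3 regions, of which 2 came from 1 library each, and its promoter was the single region of the locus present in 6 of 6 libraries. With peaks restricted to a -log10 q of 5 or more, the promoters of Irf3 and Irf7 were each present in 2 of 3 siArid3a and 2 of 3 NC libraries. At both genes the peaks lost were those of siArid3a replicate 3 and NC replicate 2, the shallowest library of each group.

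The Irf1 promoter was open in 3 of 3 siArid3a and 2 of 3 NC libraries, a pattern seen at 4.45% of coding gene promoters. Irf1 encodes an activator of antiviral and inflammatory genes. The promoter region at chr11:53769836-53770717, which spans both annotated starts, had fold enrichments of 10.4, 8.55 and 8.60 in siArid3a and 8.82 and 7.60 in NC replicates 1 and 3. The summits carried 25, 16 and 13 tags in siArid3a and 16 and 15 in these NC libraries. The library without a peak was NC replicate 2, the shallowest of the 6. With all lists cut to their 33248 strongest peaks, the length of the shortest list, the pattern was again 3 of 3 siArid3a and 2 of 3 NC. The shortest list is that of NC replicate 2, so the cut left it unchanged and could not give that library a peak. The GAS match at positions -90 to -82 lay inside the peaks of 3 siArid3a and 2 NC libraries.

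Irf2, mostly a repressor, had a weak promoter peak whose place differed between libraries. The region at chr8:46739311-46740025 also covers the promoter window of Gm16675 and was present in 3 of 3 siArid3a libraries, with fold enrichments of 4.30, 4.91 and 5.60 and 10, 9 and 10 tags. In NC it was present only in replicate 3, with a fold enrichment of 3.51 and 8 tags. The pattern of 3 siArid3a and 1 NC library was found at 0.663% of coding gene promoters, and a single promoter of 9 chosen with results known is too few to read a difference from. The siArid3a summits lay at positions -265, -226 and -288, and the NC replicate 3 summit at position 226. The NC peak (chr8:46739789-46740015) did not overlap the peaks of siArid3a replicate 1 (chr8:46739311-46739612) and replicate 3 (chr8:46739349-46739609). The ISRE match at positions -241 to -232 and the GAS match at positions -224 to -216 lay inside the peaks of 3 of 3 siArid3a and 0 of 3 NC libraries. This split restates where the peaks lie, and its share over all promoters was not counted. The siArid3a peaks were weak, with -log10 q values of 3.66, 4.31 and 5.31. Of the 3 siArid3a peaks, 1 remained with lists of equal length and 1 with a -log10 q of 5 or more, and 0 of 3 NC libraries had the peak in either case. After the start, a region at chr8:46740733-46741679 was present in 3 of 3 siArid3a libraries and in NC replicates 1 and 3. Its fold enrichments were 8.11, 4.59 and 4.15 in siArid3a and 7.66 and 8.96 in those NC libraries. Deeper inside the gene, a region at chr8:46811219-46811642 was strong in all 6 libraries, with fold enrichments of 12.2, 13.1 and 11.2 in siArid3a and 12.0, 7.98 and 14.0 in NC.

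Stat6, which carries interleukin-4 and interleukin-13 signals, showed the opposite pattern at its promoter, again at low values. The region at chr10:127642478-127643184 was present in siArid3a replicate 3 alone, with a fold enrichment of 3.91 and 10 tags. In NC it was present in 3 of 3 libraries, at fold enrichments of 5.47, 3.25 and 4.55 and with 18, 8 and 17 tags. The siArid3a value lay within the NC range, and 1 siArid3a and 3 NC libraries were found at 0.623% of coding gene promoters. The 2 siArid3a libraries without this peak were the deeper ones of that group. They had a peak farther inside the gene, in a region at chr10:127643546-127644336 that was also present in NC replicates 2 and 3, with fold enrichments of 4.52 and 4.97 in siArid3a replicates 1 and 2 and 5.38 and 4.04 in those NC libraries. On the other side, a region 0.692 kb before the gene (chr10:127641883-127642263) was present in 6 of 6 libraries, at 7.81, 8.61 and 7.08 in siArid3a and 8.32, 7.23 and 8.02 in NC. With a promoter window of 1000 bases on each side of the start, Stat6 therefore had a peak in 3 of 3 siArid3a and 3 of 3 NC libraries.

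Irf8, the factor of myeloid and B cells, was the one member without any region within 20 kb, as were 19.0% of 21887 coding genes. Its first promoter window was rich in G and C, at 70.0%, and held 38 CpG dinucleotides. The median was 62.0% G and C and 22 CpG over the promoter windows of coding genes open in 6 of 6 libraries, and 49.67% and 4 CpG over those open in 0 of 6. The nearest regions lay 40.3 kb upstream of the gene, present in siArid3a replicate 3 alone, and 39.41 kb downstream. The downstream region (chr8:120796107-120796703) had fold enrichments of 5.54, 6.22 and 4.19 in siArid3a and 4.42 and 6.44 in NC replicates 2 and 3. Its GAS matches at positions -171 to -163 and -153 to -145 lay in 0 of 6 libraries' peaks.

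Matches to regulatory motifs were counted in the 12 promoter windows of the 9 genes and in all 21263 promoter windows of coding genes. The ISRE pattern matched in 2 of 12 (Irf2 and Stat2), against 3.35% of all windows. The GAS pattern matched in 3 of 12 (Irf1, Irf2 and Irf8), against 7.69%. The GC box GGGCGG matched in 8 of 12, against 46.2%. The AP-1 motif TGANTCA and ATTAAA, an AT-rich stretch of the kind ARID proteins bind, matched in 0 of 12, against 6.99% and 11.7%. No ISRE match overlapped a GAS match in these windows, and each match describes letters only.

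Of the 60 regions, 19 (31.7%) were present in 6 of 6 libraries, against 24.4% of all regions, and 21 were present in 1 library, against 33.5% of all regions. Of the 18 regions over a promoter window of a member or a neighbour, 12 were present in 6 of 6, against 60.5% of all promoter regions. Of the other 42, 7 were, against 19.5% of all regions outside promoters. Promoter regions made up 12 of the 19 shared regions of the loci, against 29.6% of the shared regions of the series. Each locus was drawn around a gene, whereas the series also covers stretches without genes, so these shares are not like for like. All 21 regions seen in 1 library lay outside promoter windows, as did 97.1% of such regions in the series. The median number of regions within 20 kb was 7 over the 9 genes and 4 over all coding genes, and the median of regions in 6 of 6 libraries was 2 over the 9 genes and 1 over all. Scaled to length, the medians were 11.9 and 5.48 regions per 100 kb. These are descriptions of loci picked with results known, and no test was made of them.

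**Figure D2:**
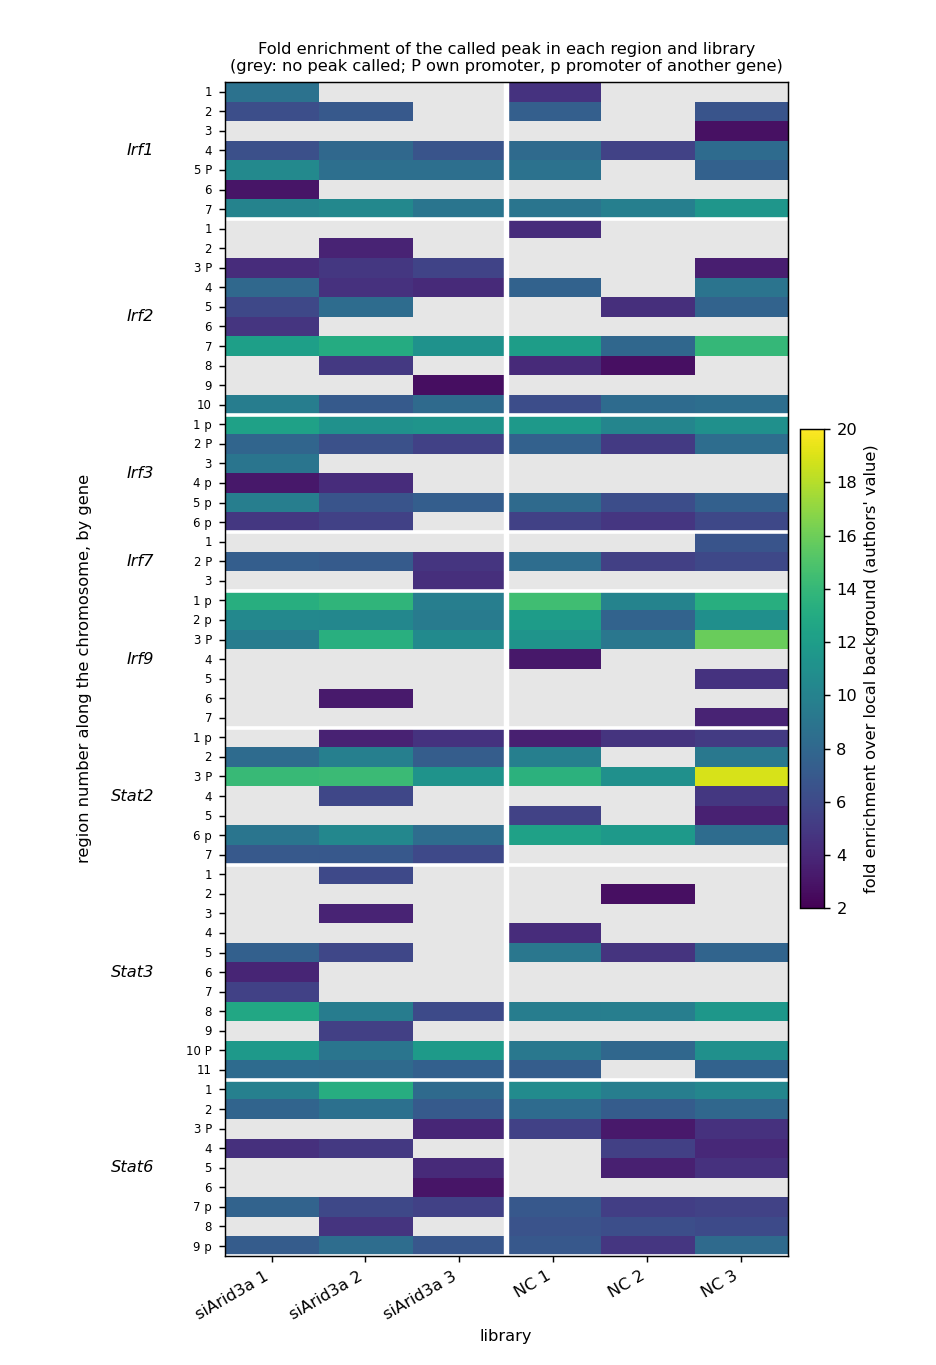
Fold enrichment, as given by the authors' caller and shown by colour, of the called peak in each of the 60 regions (rows, numbered along the chromosome and grouped by gene) and each library (columns, siArid3a left of NC). Grey marks a library without a peak, P the gene's own promoter and p the promoter of another gene. Of the rows, 19 are filled in all 6 libraries, and 1 row, the seventh of Stat2, is filled in the 3 siArid3a libraries alone. Irf8 had no region and has no row.

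The strongest shared region of a locus was the gene's own promoter at Irf7, Stat2 and Stat3 and another element elsewhere. At Irf1 it was an intergenic region 18.17 kb beyond the gene (chr11:53796546-53797149), with fold enrichments of 10.1, 10.4 and 9.03 in siArid3a and 9.02, 9.77 and 11.5 in NC. At Stat6 it lay 10.68 kb before the gene (chr10:127631512-127632272), with 9.81, 13.2 and 8.25 in siArid3a and 10.7, 9.67 and 10.3 in NC. At Irf2 it was the region at chr8:46811219-46811642, deep inside the gene, described above. At Irf3 (chr7:44986411-44987155) and Irf9 (chr14:55584994-55585623) it covered the promoters of other genes, Prmt1 and Emc9. In each of these the groups overlapped. Over all 19 regions present in 6 of 6 libraries, the fold ranges of siArid3a and NC lay apart in 0, against 5.71% of such regions in the series. With 19 regions, 0 is too few to set against that share.

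The number of peaks at the 9 loci did not separate the groups. The libraries held 39, 41 and 32 peaks there in siArid3a (37.3 ± 4.73, SD, n = 3) and 36, 30 and 39 in NC (35.0 ± 4.58, SD, n = 3). The difference of 2.33 peaks had an exact two-sided permutation p of 0.6 (20 relabellings, smallest possible p 0.1). Set against the length of each list, there were 7.72, 8.0 and 7.69 peaks per 10000 in siArid3a (7.80 ± 0.170) and 7.01, 9.02 and 7.49 in NC (7.84 ± 1.05). The difference of -0.0416 had an exact permutation p of 1, and it turned positive without siArid3a replicate 1 (6.59e-05), siArid3a replicate 3 (0.0147) or NC replicate 2 (0.549, exact permutation p = 0.1, the smallest possible). Peaks covered 17.2, 19.7 and 13.2 kb of the loci in siArid3a (16.7 ± 3.24 kb) and 17.4, 12.3 and 20.8 kb in NC (16.8 ± 4.31 kb). The difference of -0.153 kb had an exact permutation p of 0.9, and it turned positive without siArid3a replicate 3 (1.58 kb), NC replicate 1 (0.129 kb) or NC replicate 3 (1.85 kb). Adjusted over these 3 tests, each p was 1. The differences were smaller than the spread between libraries, and without NC replicate 2 the difference in peaks was -0.167.

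**Figure D3:**
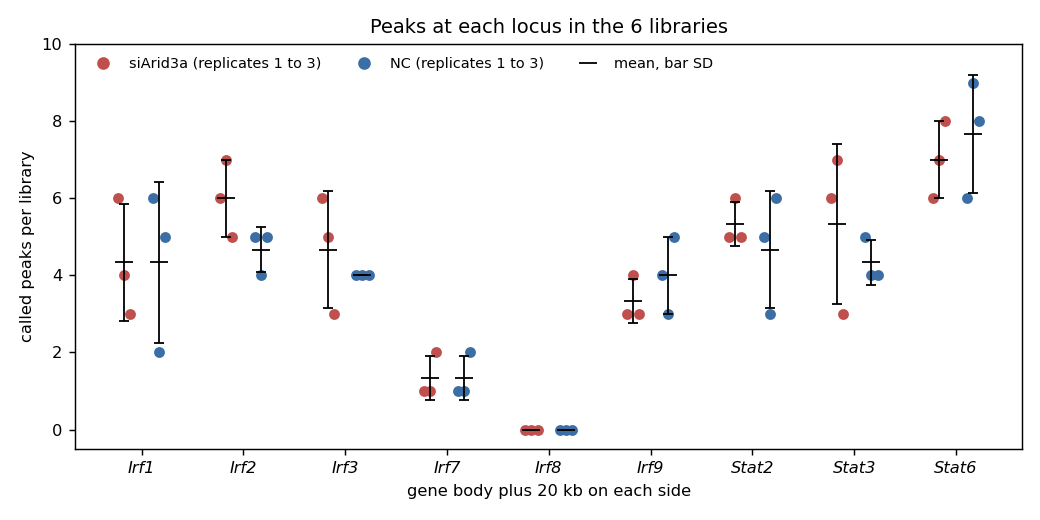
Number of called peaks in each library (dots) at each gene body plus 20 kb on each side, siArid3a left and NC right for each gene, with the mean and SD of 3 libraries. The groups overlap or touch at all loci, with 5 to 7 peaks in siArid3a and 4 to 5 in NC at Irf2, and 0 peaks in all libraries at Irf8.

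At single loci the counts also overlapped. Irf2 had 6, 7 and 5 peaks in siArid3a and 5, 4 and 5 in NC, and Stat6 had 6, 7 and 8 in siArid3a and 6, 9 and 8 in NC. Irf1 had 6, 4 and 3 in siArid3a and 6, 2 and 5 in NC, with the lowest number in NC replicate 2. Of the 7 regions missing from exactly 1 library, 1 was missing from siArid3a replicate 1, 2 from siArid3a replicate 3 and 4 from NC replicate 2. Over all regions of the series, 24.0% of those missing from exactly 1 library were missing from siArid3a replicate 3 and 57.3% from NC replicate 2, the 2 shallowest libraries. Within each library, the median fold enrichment of the peaks at the 9 loci was above that of the whole list. It was 7.90, 7.01 and 6.97 in siArid3a, against list medians of 6.94, 6.95 and 5.96, and 7.94, 5.89 and 7.71 in NC, against list medians of 6.89, 5.78 and 6.76.

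A single region was present in 3 of 3 siArid3a and 0 of 3 NC libraries, and 0 regions showed the reverse. In the whole series 0.432% of regions were present in siArid3a libraries alone and 0.277% in NC libraries alone, so 1 and 0 of 60 are too few to set against those shares. The region lay at chr10:128310104-128310528, inside Pan2, which encodes a subunit of a poly(A) nuclease, and 17.25 kb beyond Stat2. Its fold enrichments were 7.04, 6.95 and 5.96 in siArid3a replicates 1 to 3, with 9, 9 and 6 tags at the summits, and no peak was called in any NC library. The -log10 q values were 7.68, 7.53 and 6.15. The lowest of them was at or above that of 94.3% of the 368 regions of this kind, whose median was 3.13. For 1 region, an exact test of 3 libraries against 3 gives a p of 0.1 at best. The region was again in siArid3a alone with a -log10 q of 5 or more and with lists of equal length. Both settings only remove peaks, and its siArid3a peaks lay above both cuts, so this outcome was fixed in advance. It was not in siArid3a alone where a library's peaks had to cover 50% of the region. At Stat6, a region 13.78 kb beyond the gene (chr10:127674765-127675297), chosen after its values were seen, had fold enrichments of 4.73 in siArid3a replicate 2 alone and 6.63, 6.33 and 6.02 in NC. The siArid3a peak had 11 tags and a -log10 q of 4.54. The NC peaks had 16, 11 and 15 tags and -log10 q values of 8.97, 6.48 and 7.71. With a -log10 q of 5 or more and with lists of equal length, that siArid3a peak was lost, which left the region in NC alone.

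The genes around these factors in the pathway were described by the same promoter windows, and their lists too were chosen with results known. Of 11 receptor genes with a window, 7 had a promoter peak in 6 of 6 libraries, among them Ifnar1, Ifnar2 and Ifngr1, which encode interferon receptor chains, and Il6ra. A further 3, Ifngr2, Ifnlr1 and Lifr, had one in 1 to 5 libraries, and Il13ra1 had none. The kinases Jak1 and Tyk2 had a promoter peak in 6 of 6, Jak2 in 2 siArid3a and 3 NC libraries, and Jak3, the kinase of lymphoid cells, in 1 siArid3a and 0 NC libraries. Of 9 genes of nucleic acid sensing, Tbk1, Mavs and Ticam1 had one in 6 of 6, 5 had one in 1 to 5 libraries, and Cgas had none.

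Among 8 other IRF, IRF2-binding and STAT genes with a window, Irf2bpl and Stat5a had a promoter peak in 6 of 6 libraries. Irf4 had one in 1 siArid3a and 2 NC libraries, Stat5b in 0 siArid3a and 1 NC, and Irf2bp1, Irf2bp2, Irf5 and Stat4 in none. Of 17 interferon-induced genes, 8 had one in 6 of 6, among them Ifit1, Ifit2, Gbp2 and Ifi35. A further 8 had one in 1 to 5 libraries, and Isg15 had none. Of 8 inhibitors of the pathway, 7 had a promoter peak in 6 of 6, among them the feedback inhibitors Socs1, Socs3 and Cish and the SUMO ligase Pias1, and the phosphatase gene Ptpn6 had none. No promoter of these lists was open in all libraries of 1 group and none of the other. The share of such promoters over all coding genes was not counted. Even 3 libraries of 1 group with 1 of the other were found at only 0.663% (siArid3a) and 0.623% (NC) of coding gene promoters. The absence therefore sets no list apart.

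**Figure D4:**
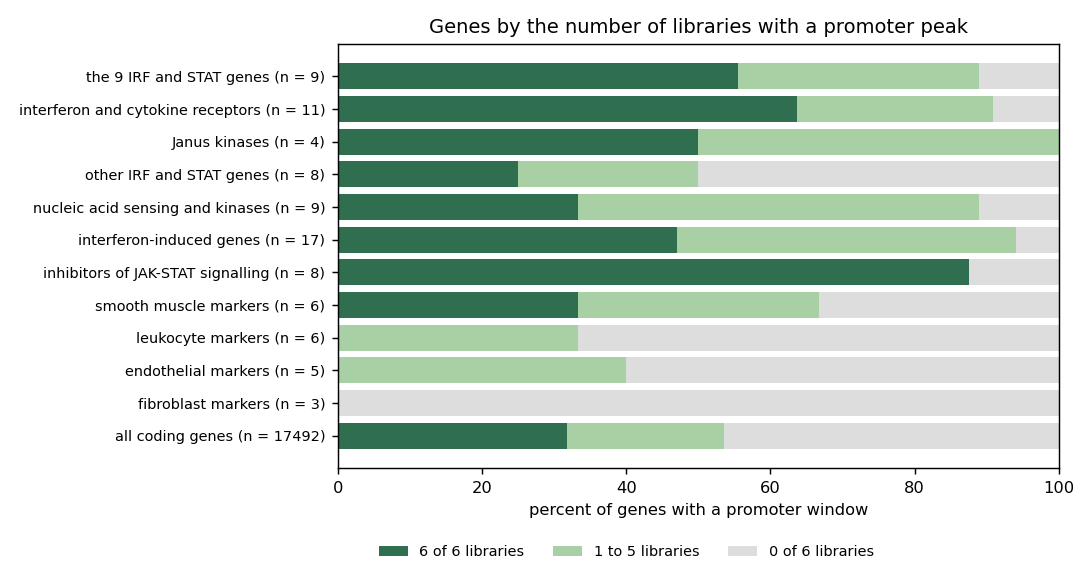
Percent of the genes of each list, with the number that have a promoter window, whose promoter had a peak in 6 of 6, 1 to 5 or 0 of 6 libraries of both groups. The inhibitor list has 7 of 8 genes and the 9 IRF and STAT genes 5 of 9 in the 6 of 6 class, against 31.8% of all coding genes.

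The lists of pathway genes held 0 or 1 region open in 1 group alone, and with series shares of 0.432% for siArid3a alone and 0.277% for NC alone these counts set no list apart. The share of regions in 6 of 6 libraries was 24.4% over the series. Within 20 kb of the receptors there were 79 regions, of which 22 were in 6 of 6 libraries and 0 in 1 group alone. The interferon-induced genes had 82 regions with 18 in 6 of 6, and the Janus kinases 35 with 9, and neither list had one in 1 group alone. The sensing genes had 62 regions with 25 in 6 of 6 and the inhibitors 78 with 28, and each of these lists had 1 region in 0 of 3 siArid3a and 3 of 3 NC libraries. For the sensing genes it lay 17.38 kb from Cgas, which encodes a sensor of cytosolic DNA (chr9:78460613-78460976), with no peak in siArid3a and fold enrichments of 5.81, 5.23 and 5.02 in NC. For the inhibitors it lay inside Ptpn2, a phosphatase gene, with no peak in siArid3a and 4.15, 5.41 and 4.67 in NC.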

How the data were processed

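The 6 ATAC-seq libraries of 3 siArid3a and 3 NC samples were grouped by the treatment labels. Per the submitters' processing notes, Bowtie2, Picard, MACS2 and the build mm10 were used. The sources used here do not give versions, parameters, handling of duplicates, any Tn5 shift of the reads or the control for peak calling, and kept duplicates would raise tags and peak calls. The authors deposited 1 narrowPeak list per library, so peaks were called per sample. For each peak the deposited columns hold a position, a score, a fold ratio over local background at the summit, a −log10 p and a −log10 q, and the summit's offset. The deposited score was the −log10 q times 10, cut to a whole number, for all but 1 to 6 peaks per list. The smallest −log10 q lay just above 1.30 in each list, which is the value at a q of 0.05. Fold and −log10 q are values within a library, not adjusted for its depth, and were used to describe, rank and filter peaks. Fold ranges of siArid3a and NC were also set side by side, as a description without a test.

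Tags at a summit were recovered from the deposited fold and −log10 p under the Poisson model of MACS2, whole within 0.001 for at least 99.996% of peaks per library. The estimated totals assume the default mouse genome size, so they only rank libraries by depth.

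Peaks were merged and counted in Python 3.11.15 with numpy 2.4.6, pandas 2.3.3 and scipy 1.17.1, and figures drawn with matplotlib 3.10.9. Gene positions came from a RefSeq table of GRCm38.p6 and promoter windows from RefSeq promoter sequences of that build, matched by gene ID for 9 of 9 members. Mx1, Mx2 and the promoters of listed genes with no window were not analysed here. Values per library were tested by two-sided exact permutation with Benjamini-Hochberg adjustment. The merging of peaks, the calls of regions by group and the recovery of tags were checked on simulated data, and the test itself was not.

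All 9 members were named, with each region over their promoter, the region in 6 of 6 libraries with the highest median fold, and each region in 3 of 3 libraries of 1 group and 0 of the other. Of the other lists up to 4 genes per class were named in list order, and every gene with a region in 1 group alone. Further regions of Irf2, Stat3, Stat6 and Irf8 were picked after their values were seen. The members, the lists and the alternatives were chosen with earlier results of these data known. Alternatives were a −log10 q of 5 or more, lists of equal length, windows of 5 and 50 kb, a promoter window of 1000 bases on each side, cover of 50% of a region, leaving out each library, and the 4 deepest libraries.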

Additional observations from a re-analysis of the deposited data

How the results depend on the processing

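The difference in peaks per library (siArid3a minus NC) ran from -0.167 to 5 when each library was left out in turn, and turned negative only without NC replicate 2. The difference per 10000 peaks, -0.0416, changed sign under 7 of 12 alternatives: it was 0.0332 with a -log10 q of 5 or more, 0.201 with lists of equal length, 0.378 with 50 kb and 0.606 in the 4 deepest libraries, and ran from -0.455 to 0.549 with a library left out, with the highest value without NC replicate 2 (exact permutation p = 0.1, the smallest possible). Covered length changed sign with 5 kb, at 0.0573 kb, and ran from -2.43 to 1.85 kb with a library left out. Every other exact permutation p of these 3 numbers was above 0.1. For the difference per 10000 peaks in the 4 deepest libraries it was 0.333, which is the smallest possible with so few libraries.

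Regions in 6 of 6 libraries numbered 9 of 29 with 5 kb and 45 of 122 with 50 kb, against 24.4% of all regions. With a library left out, 19 to 23 of 55 to 59 regions were in all libraries kept, against 26.2% to 31.5% of all regions. Regions in siArid3a alone numbered 0 with 5 kb, 0 with 50% cover and 2 in the 4 deepest libraries. The shares over all regions were 0.432% with 5 kb and 0.504% with 50% cover. With a library left out there were 1 to 2, against 0.58% to 1.96% of all regions. Regions in NC alone numbered 1 with a -log10 q of 5 or more, 1 with lists of equal length and 2 in the 4 deepest. The shares over all regions were 0.139% with that -log10 q and 0.425% with equal length. With a library left out there were 0 to 1, against 0.492% to 1.9% of all regions. In the 4 deepest libraries the shares over all regions were 2.44% and 2.7%. Without NC replicate 3, the Irf2 promoter region joined those in siArid3a alone. Without siArid3a replicate 2, only the part of that region at chr8:46739311-46739612 did so. The peak of siArid3a replicate 2 had merged this part with the NC replicate 3 peak, which was still present. Without siArid3a replicate 3 the Stat6 promoter region joined those in NC alone. Members with a promoter peak in all libraries numbered 3 with a -log10 q of 5 or more and 5 to 6 with a library left out. Except for the windows and smaller sets of libraries, which change what is counted, the cause was not tested.

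With the replicate numbers as a replicate block, the differences were again 2.33 peaks, -0.0416 per 10000 and -0.153 kb, with an exact permutation p of 0.75, 1 and 0.75, where 0.25 is the smallest possible. Same-numbered siArid3a and NC libraries correlated at 0.02403, -0.05206 and -0.04789 across regions, and different-numbered ones from -0.04549 to 0.09118. The highest value was that of siArid3a replicate 3 with NC replicate 2, so the numbers gave no sign of pairing. These values only set pairs of libraries beside one another and do not measure how alike the libraries are. Depth limits which weak peaks a list holds. The smallest summits of the lists had 3, 3 and 2 tags in siArid3a and 3, 2 and 3 in NC. Intervals, and floors scaled to total reads, cannot be given, since total reads are unknown.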
